A study of Mus musculus with 2 samples.

Results

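A set of 7 genes of connective tissue matrix and cell adhesion was followed in chromatin of the embryonic mouse limb: Col1a1, Col1a2, Col3a1, Col5a1, Col5a2, Postn and Cdh11. They are 7 of the 21938 protein-coding genes of the GENCODE M21 annotation, and the first 5 encode chains of fibril-forming collagens, while Postn and Cdh11 do not encode collagens. Sites of open chromatin were given to them by position alone. A peak whose centre lay within 500 bp of any annotated transcription start site (TSS) of a gene is called a TSS peak. A peak centred more than 1 kb away from all protein-coding TSSs is called distal, and the gene whose protein-coding TSS is nearest received it if that TSS was within 100 kb. By this rule the 7 genes held 191 of the 208674 peaks of replicate 1, of which 10 were TSS peaks and 181 distal. In replicate 2 they held 182 of 196593 peaks, of which 13 were TSS peaks and 169 distal.

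The data are DNase-seq maps, in which the enzyme DNase I cuts chromatin where DNA is accessible, from limbs of strain B6NCrl embryos at day 14.5. There is 1 group of 2 replicates, each made from pooled males and females, and no other tissue, genotype, treatment or age was set against it. The libraries are numbered as biological replicates, yet 1 donor identifier stands on both, so the spread between them may be partly technical. Peaks were called in each library separately, and each carries the authors' own signal value, whose scaling is not given in the sources used here.

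Fibrillar collagens are secreted as procollagen, trimmed outside the cell and packed into fibrils that give bone, tendon and skin their strength. Type I collagen is a trimer of Col1a1 and Col1a2 chains, type III a trimer of Col3a1 chains, and type V, built from Col5a1 and Col5a2 chains, sits inside type I fibrils and limits their diameter. Periostin, encoded by Postn, is a matrix protein of the periosteum and other collagen-rich tissue, and cadherin 11, encoded by Cdh11, joins mesenchymal cells to each other.

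The strongest distal site of each gene is shown here because the description of the distal landscape rests on it. All positions are on mm10 (GRCm38). A peak is called shared if a single peak in the second map covers 50% of its length or more, and shared peaks carry the replicate 1 coordinates. Each line gives the 150 bases of the shared distal peak with the highest mean signal rank, read on the strand of the gene. Capitals mark matches to 1 of 18 short motifs on either strand.
Col1a1 chr11:94928916-94929065: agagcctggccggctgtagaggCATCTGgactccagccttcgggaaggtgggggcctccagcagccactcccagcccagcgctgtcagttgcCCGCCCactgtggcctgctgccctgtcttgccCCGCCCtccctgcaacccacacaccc
Col1a2 chr6:4457736-4457885: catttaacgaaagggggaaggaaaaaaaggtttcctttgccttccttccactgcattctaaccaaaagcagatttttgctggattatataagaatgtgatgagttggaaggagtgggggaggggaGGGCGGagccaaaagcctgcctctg
Col3a1 chr1:45312956-45313105: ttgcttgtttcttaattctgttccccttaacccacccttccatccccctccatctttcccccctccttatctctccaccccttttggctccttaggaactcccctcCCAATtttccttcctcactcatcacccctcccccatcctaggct
Col5a1 chr2:27836196-27836345: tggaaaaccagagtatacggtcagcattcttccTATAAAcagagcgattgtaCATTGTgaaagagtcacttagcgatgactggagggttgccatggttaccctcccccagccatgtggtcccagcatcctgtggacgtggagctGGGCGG
Col5a2 chr1:45501496-45501645: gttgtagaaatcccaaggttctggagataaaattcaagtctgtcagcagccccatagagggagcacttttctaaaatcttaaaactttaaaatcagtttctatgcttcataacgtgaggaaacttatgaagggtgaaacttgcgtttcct
Postn chr3:54353396-54353545: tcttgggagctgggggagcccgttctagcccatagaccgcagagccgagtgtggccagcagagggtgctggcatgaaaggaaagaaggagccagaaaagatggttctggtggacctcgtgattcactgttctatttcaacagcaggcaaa
Cdh11 chr8:102781016-102781165: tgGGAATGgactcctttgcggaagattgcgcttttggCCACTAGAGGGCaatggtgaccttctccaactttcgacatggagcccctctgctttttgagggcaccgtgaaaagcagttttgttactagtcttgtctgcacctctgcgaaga
The Col1a1 site holds CAGATG and GGGCGG, both read on the opposite strand, and the Col1a2 site holds GGGCGG. The Col3a1 site holds CCAAT. The Col5a1 site holds a TATA box (TATAAA), an SP/KLF motif and, on the opposite strand, a SOX motif (ACAATG). The Cdh11 site holds a TEAD motif (GGAATG) and a CTCF motif. None of the 18 motifs was found in the sites of Col5a2 and Postn. GC content ran from 38% at the Col5a2 site to 69.3% at the Col1a1 site. The sites of Col1a1, Col1a2, Col5a1 and Postn lay upstream of their genes in intergenic sequence, and those of Col3a1, Col5a2 and Cdh11 lay in introns of their own genes.

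Sequence just before the gene starts is shown for 5 of the genes, because the starts differ in base composition. For Col3a1, Col5a1 and Postn the lines give the 150 bases before the RefSeq TSS (GRCm38.p6). RefSeq promoter entries matched 4 of the 7 genes, the 3 named and Col1a2, whose 150 bases overlap a transcribed leader of another annotated transcript and are not printed. For Col1a1 the line gives the 68 bases of the TSS peak before the 5′ end, and for Cdh11 the 150 bases of the TSS peak upstream of the 5′ end. Capitals again mark motif matches.
Col1a1 chr11:94936156-94936223: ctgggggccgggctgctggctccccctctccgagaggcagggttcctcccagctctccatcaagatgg
Col3a1 chr1:45311388-45311537: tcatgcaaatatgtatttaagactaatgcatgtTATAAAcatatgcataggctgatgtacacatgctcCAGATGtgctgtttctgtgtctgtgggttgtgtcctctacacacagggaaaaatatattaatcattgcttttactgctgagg
Col5a1 chr2:27886275-27886424: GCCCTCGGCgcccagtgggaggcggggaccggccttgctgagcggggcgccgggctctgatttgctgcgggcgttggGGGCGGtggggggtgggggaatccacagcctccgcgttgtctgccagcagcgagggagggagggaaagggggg
Postn chr3:54360957-54361106: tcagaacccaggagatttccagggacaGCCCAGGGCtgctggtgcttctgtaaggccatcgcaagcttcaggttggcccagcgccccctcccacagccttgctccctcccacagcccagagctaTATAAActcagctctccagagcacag
Cdh11 chr8:102785796-102785945: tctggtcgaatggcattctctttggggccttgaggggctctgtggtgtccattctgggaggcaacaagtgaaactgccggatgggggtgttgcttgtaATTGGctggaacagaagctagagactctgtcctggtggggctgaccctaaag
In the Postn sequence a TATAAA begins 26 bases before the RefSeq TSS, and in that of Col3a1 a TATAAA begins 117 bases before it. In the Col5a1 sequence a GGGCGG (SP/KLF) begins 73 bases before the TSS, and at Col1a2 a CCAAT begins 109 bases before it. Of 32851 RefSeq promoters, the 150 bases before the TSS held TATAAA in 7.57%, CCAAT in 24.5% and GGGCGG in 28.6%, on either strand. The printed Col5a1 bases contain 13 CpG dinucleotides, those of Postn 2 and those of Col3a1 0. A match describes letters only and is not a measured binding site.

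Each of the 7 genes had a shared TSS peak, 7 of 7, while 64.6% of all protein-coding genes (14169 of 21938) had one. Since there is a single group, and the genes were chosen with earlier results of these data known, this and the other counts are descriptions without a test. Both libraries came from limb tissue of many cell types, in which fewer cells with an open site and less opening per cell cannot be told apart. The ratio of observed to expected CpGs in the sequence within 500 bp of the 5′ end was 0.821 at Col5a1 and lay between 0.178 and 0.488 at the other 6 genes, against a median of 0.552 over all genes. Of the 10185 genes with a ratio under 0.5, a limit chosen after the values were seen, 31.9% had a shared TSS peak, and of the 11753 genes with a ratio of 0.5 or more, 93% had one.

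The type I collagen genes were open at their starts in both replicates. Col1a1 (chr11:94936224-94953042, + strand), the gene of the chain that makes up most of the trimer, had a peak over its 5′ end, where the signal was 102 in replicate 1 and 87 in replicate 2. A Col1a1 peak in the first part of the gene, 1227 bp from the 5′ end and within 500 bp of an internal annotated TSS, had signals of 95 and 93. It lies at chr11:94937376-94937525, in an intron. Another shared Col1a1 peak, 3247 bp from the 5′ end, had signals of 85 and 50. By rank in the list of each replicate it stood at percentile 88.2 in replicate 1 and 79.7 in replicate 2, a wider gap than at the other 2 sites. A further Col1a1 TSS peak was called in replicate 1 alone, with a signal of 26, the lowest TSS peak of the 7 genes in that replicate. Col1a2 (chr6:4504814-4541544, + strand), the gene of the partner chain, had 1 shared TSS peak with signals of 128 and 98. The Col1a2 peak lay 797 bp inside the outermost annotated 5′ end, beside the starts of other Col1a2 transcripts, so with only the outermost 5′ end counted Col1a2 had no shared TSS peak.

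The type III and type V genes each had 1 shared TSS peak. Col3a1 (chr1:45311538-45349706, + strand) had signals of 113 in replicate 1 and 84 in replicate 2, at the same position in both. Col5a1 (chr2:27886425-28039514, + strand) had signals of 124 and 106, at a peak centred at -114 bp from the 5′ end. Col5a1 also had a second upstream peak of signal 78 in replicate 2. No peak of replicate 1 overlaps it, although a broader region called in replicate 1, chr2:27885580-27887770, covers it. Col5a2 (chr1:45374321-45503282, − strand) had signals of 106 and 93. Col5a2 and Col3a1 lie tail to tail on chromosome 1, 24.6 kb apart at their 3′ ends. These TSS peaks were among the stronger peaks of their lists: the percentile of a peak is the rank of its signal in the full list of its own replicate, and for the shared ones of Col3a1, Col5a1 and Col5a2 it ran from 94.4 to 98.1 over both replicates.

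The genes outside the collagen family had less even starts. Postn (chr3:54361109-54391037, + strand) had a shared TSS peak with signals of 72 and 70, below the strongest TSS peak of each collagen gene in the same replicate. Its percentile was 81.9 in replicate 1 and 91.2 in replicate 2. Cdh11 (chr8:102632095-102785642, − strand) had a weak shared TSS peak upstream of the 5′ end, with signals of 49 and 27. The strong Cdh11 peak lay inside the gene, and the replicates fell on different sides of the window edge. In replicate 2 it had a signal of 97, with its centre 471 bp from the TSS. In replicate 1 the overlapping Cdh11 peak had a signal of 119 and a centre 511 bp from the TSS, just outside the window, so it counts in neither class there. A further Cdh11 TSS peak was called in replicate 2 only, with a signal of 31.

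**Figure D1:**
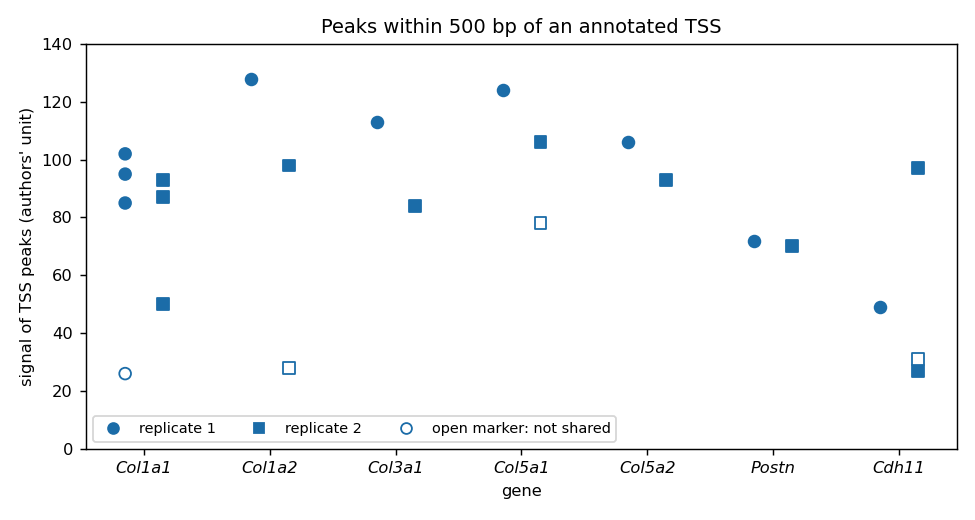
Signal of each TSS peak in the authors' unit (vertical axis) for the 7 genes (horizontal axis), with circles for replicate 1, squares for replicate 2 and open markers for peaks not shared. Col1a2 is highest in replicate 1 at 128, Col5a1 highest in replicate 2 at 106, and Cdh11 runs from 27 to 97.

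Ordered by the mean percentile of the strongest TSS peak over both replicates, Col5a1 came first with 97.8 ± 0.488 (SD, n = 2) and Col1a2 next with 97.6 ± 0.763 (SD, n = 2), a difference smaller than either spread. Col5a2 (95.3 ± 1.36), Col3a1 (95.2 ± 0.615) and Col1a1 (94.9 ± 1.95, all SD, n = 2) followed, and these 3 also differed by less than their spread. The Col1a1 value joins different sites, the 5′ end in replicate 1 (93.5) and the intronic peak 1227 bp from it in replicate 2 (96.3). The Col1a1 5′ end alone had percentiles of 93.5 and 95.3. The percentiles of Col1a2, 98.1 and 97, did not overlap those of Col5a2, 94.4 and 96.3. Postn stood at 86.5 ± 6.6 and Cdh11 at 79.4 ± 24.7 (SD, n = 2), the latter set by the window edge described above. Over all 14169 genes with a shared TSS peak, the strongest shared one had a median percentile of 96, with quartiles of 88.8 and 98.2. The median of the 7 genes, counting shared peaks in the same way, was 95.2, close to the median over all open genes. The 7 values ran from 50.3 at Cdh11 to 97.8 at Col5a1. Cdh11 and Postn, the latter at 86.5, lay below the lower quartile of 88.8. The Cdh11 value is that of its weak upstream peak. The strong Cdh11 peak at the window edge, not counted here, had percentiles of 96.6 in replicate 1 and 96.9 in replicate 2. The hotspots around most of these TSS peaks, broader regions scored by −log10 q, stood at the ceiling of 100. The exceptions were the Col1a1 peak 3247 bp from the 5′ end in replicate 2 (3.85), the upstream Cdh11 peaks (2.17 in replicate 1, and 1.5 and 3.71 in replicate 2) and the Col1a2 peak called in replicate 2 alone (2.31).

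Peaks between 500 bp and 1 kb from a TSS count in neither class, and each of the 7 genes had at least 1. The strongest were the Cdh11 peak of signal 119 just named and a Col1a1 peak at -535 bp from an internal TSS, at 113 in replicate 1 and 93 in replicate 2. Col1a2 had a shared one at 94 and 72, Col3a1 at 80 and 55, Col5a1 at 72 and 64, Col5a2 at 93 and 54, and Postn at 73 and 63. All of these were also called in the other replicate.

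Beyond the starts, the 7 genes held 109 shared distal peaks, and 7 of 7 genes had at least 1, against 64.9% of all protein-coding genes. Col1a1 had 30 distal peaks in replicate 1 and 23 in replicate 2, of which 19 were shared. For Col1a2 the counts were 34, 26 and 21, and for Col5a1 33, 30 and 21. Col5a2 had 31 and 24 with 18 shared, and Postn 19 and 25 with 14 shared. Col3a1 had 13 and 15 with 8 shared, and Cdh11 21 and 26 with 8 shared. Col1a2 and Col5a1 thus shared the highest count, and Col3a1 and Cdh11 the lowest. This order moved with the peaks counted: among the 50000 strongest of each replicate, Col1a1 and Col1a2 led with 10 each, Col5a1 had 9, and Col3a1, Col5a2, Postn and Cdh11 had 3 each. With hotspots in place of peaks, Col5a1 led with 21, followed by Col1a2 with 16, Col5a2 and Postn with 15 each, Col1a1 with 14, Cdh11 with 12 and Col3a1 with 8. Between 85.9% (Col3a1 and Cdh11) and 97.9% (Col1a2 and Col5a1) of protein-coding genes had fewer shared distal peaks than the gene named, and the median gene had 1.

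**Figure D2:**
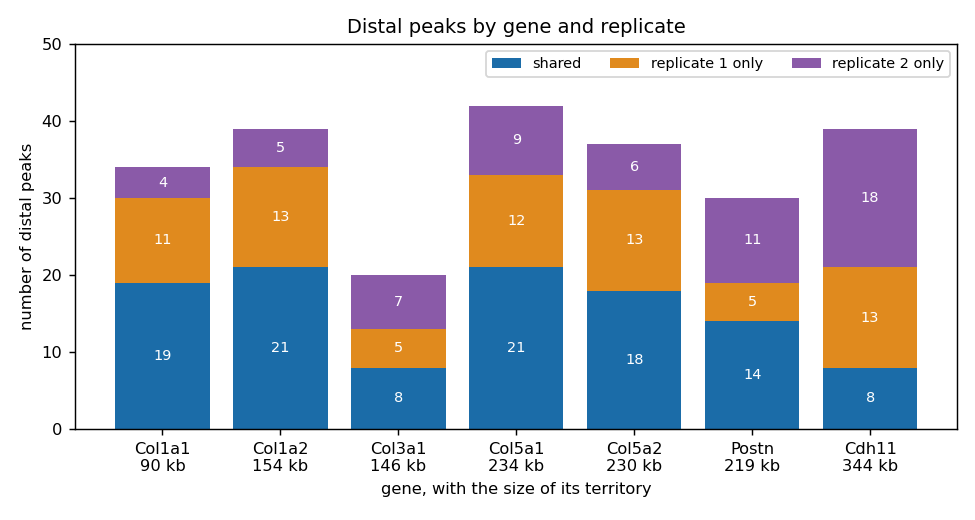
Number of distal peaks of each gene (vertical axis), with the size of each territory under the gene name. Bars are stacked as shared peaks, replicate 1 peaks not shared and replicate 2 peaks not shared. Shared counts run from 8 at Col3a1 and Cdh11 to 21 at Col1a2 and Col5a1. Cdh11 has more replicate 2 peaks that are not shared (18) than shared ones.

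The share of distal peaks found in both replicates was close to that of the whole maps. Of the distal peaks of the 7 genes, 109 of 181 in replicate 1 (60.2%) and 109 of 169 in replicate 2 (64.5%) were shared, and over all genes 60.2% and 65% were. Cdh11 stood apart within the group, with 8 of 21 peaks shared in replicate 1 and 8 of 26 in replicate 2. The peaks that were not shared were the weaker ones. The 72 of replicate 1 had a median signal of 35.5 against 58 for the shared ones. The 60 of replicate 2 had 25 against 43. The highest signal among the peaks not shared was 75 in replicate 1 and 54 in replicate 2. Some of these peaks did overlap a peak of the other replicate, but by too little to count as shared. With a 1 bp overlap the 7 genes held 116 shared distal peaks instead of 109. Over the 109 shared peaks the signals of the replicates had a Spearman correlation of 0.866, a description across sites of the same pair of libraries, and over all shared distal peaks it was 0.827.

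The genes differ in the amount of sequence that the rule gives them. That territory was 90.23 kb for Col1a1, which is closed downstream by Sgca 9.7 kb from its 3′ end, and 153.8 kb for Col1a2. It was 145.6 kb for Col3a1, 218.8 kb for Postn, 230.5 kb for Col5a2, 233.8 kb for Col5a1 and 344.3 kb for Cdh11, which has no coding neighbour within 1 Mb. Per 100 kb of territory, Col1a1 had 21.1 shared distal peaks and Col1a2 13.7. Col5a1 had 8.98, Col5a2 7.81, Postn 6.4, Col3a1 5.5 and Cdh11 2.32. With protein-coding TSSs only, the type I genes therefore led once size was taken into account. A lower density was found at 96.9% of genes for Col1a1 and at 91.4% for Col1a2. Cdh11 lay below the median gene, with a lower density at 43.2% of genes and 3.34 per 100 kb at the median. The 7 territories together held 7.69 per 100 kb, against 4.79 over all territories. With each replicate taken alone, without asking for a shared peak, the 7 territories held 12.8 per 100 kb in replicate 1 and 11.9 in replicate 2. Over all territories the values counted in this way were 7.96 and 7.38.

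**Figure D3:**
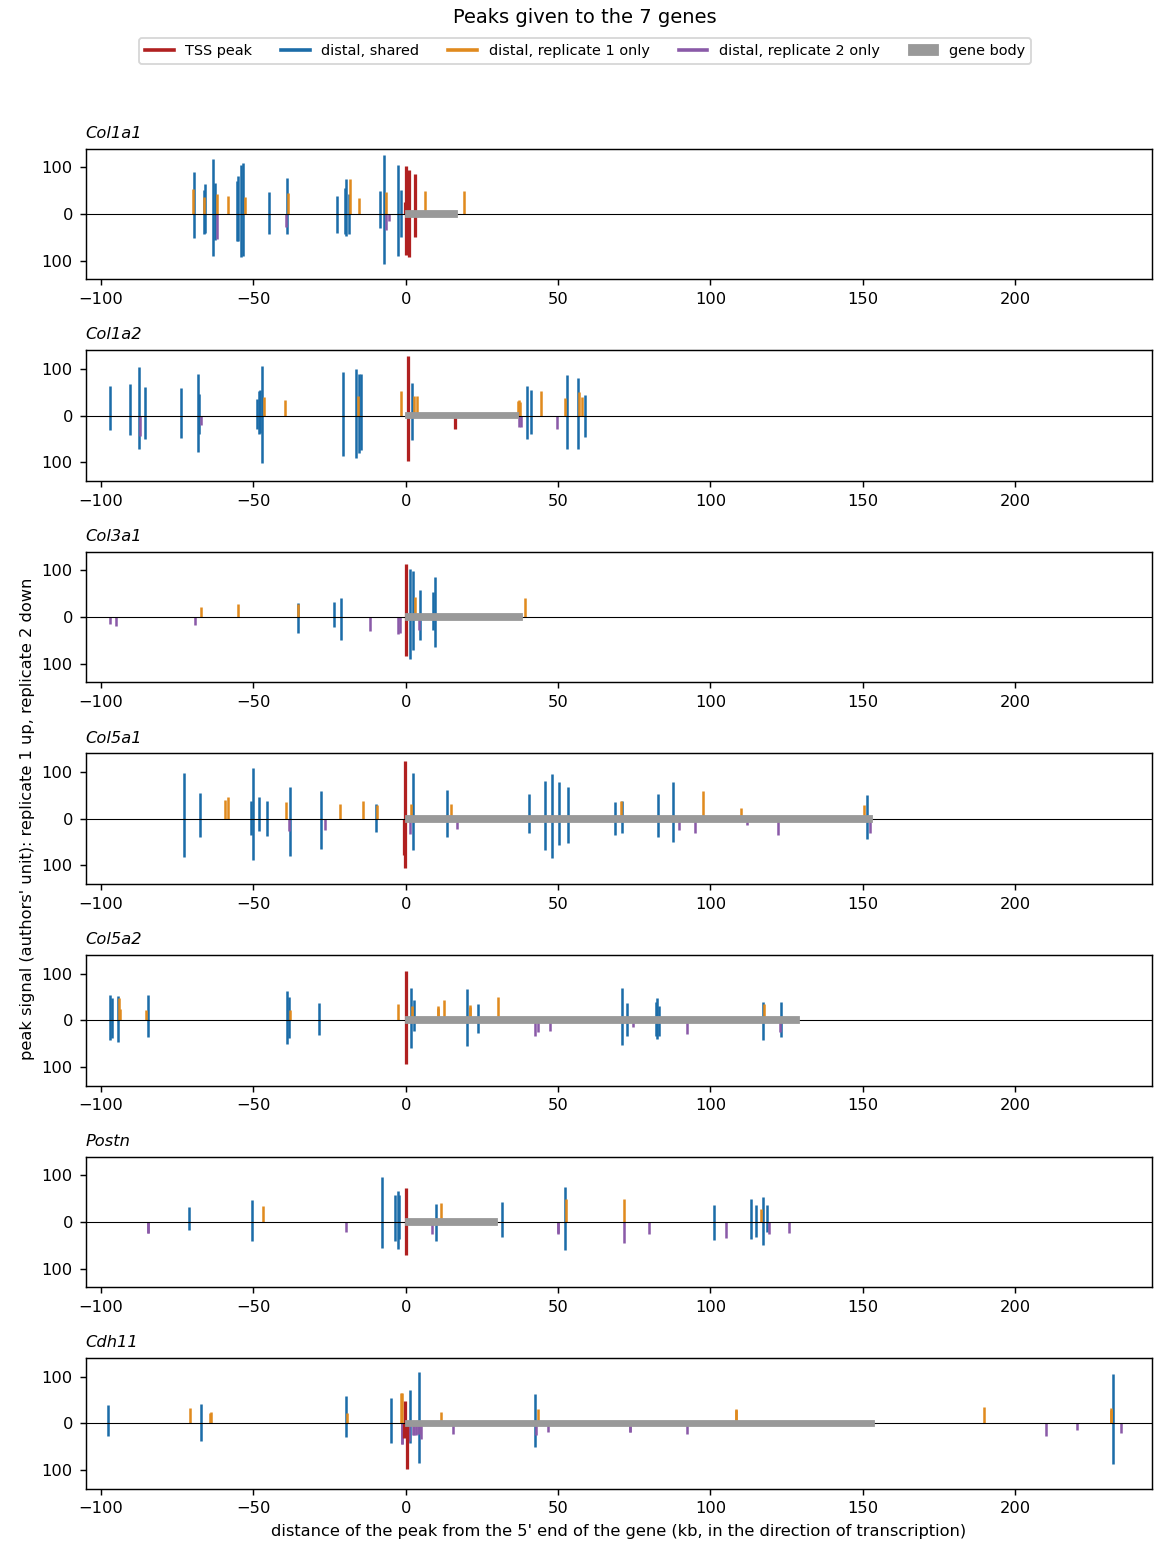
Peaks of the 7 genes by distance from the 5′ end in the direction of transcription (horizontal axis, kb), with signal in the authors' unit drawn upward for replicate 1 and downward for replicate 2. Colours separate TSS peaks, shared distal peaks and distal peaks that are not shared, and grey bars are gene bodies. All 19 shared distal peaks of Col1a1 lie upstream, while 12 of 21 at Col5a1 lie in the gene.

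The upstream side held most of the distal peaks of the type I genes. All 19 shared distal peaks of Col1a1 lay upstream, where 75.8 kb of its territory is, and none lay in the 11 kb inside the gene or the 3.44 kb downstream. The strongest, 7.23 kb upstream and printed above, had signals of 126 and 108, both above those of the Col1a1 5′ end. The next 2 lay at chr11:94873016-94873165, 63.1 kb upstream, with signals of 117 and 91, and at chr11:94882816-94882965, 53.3 kb upstream, with 110 and 90. The latter is 1 of 4 shared peaks within 2050 bp, spaced no more than 1 kb apart, whose signals ran from 70 to 110 in replicate 1 and from 57 to 92 in replicate 2. Together 11 of the 19 Col1a1 peaks had a neighbour within 1 kb.

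Of the 21 shared distal peaks of Col1a2, 15 lay upstream, 1 in the gene and 5 downstream, in 99 kb, 27.1 kb and 27.6 kb of territory. The strongest lay 47 kb from the nearest Col1a2 TSS, at chr6:4457736-4457885, with signals of 107 and 101. It is part of a run of 4 peaks from 47 to 48.7 kb upstream. A second run of 3 Col1a2 peaks, chr6:4488456-4490145, lay 14.7 to 16.3 kb upstream, with signals from 88 to 99 in replicate 1 and from 73 to 91 in replicate 2. Its outermost peak, chr6:4488456-4488605, had signals of 99 and 91. Far upstream control of Col1a2 is known from transgenic mice, and whether these runs are those elements was not tested. A further Col1a2 peak 20.6 kb upstream, chr6:4484136-4484285, had signals of 94 and 86 and lay within 500 bp of the annotated start of Gm37883, an unclassified transcript.

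Col3a1 and Col5a2 divide their locus between them. Of the 8 shared distal peaks of Col3a1, 5 lay in the gene and 3 upstream. The leading 3 lay in Col3a1 introns: chr1:45312956-45313105 had signals of 103 and 89, chr1:45314036-45314185 had 99 and 71, and chr1:45320976-45321125 had 86 and 63. Of the 18 of Col5a2, 11 lay in the gene and 7 upstream. Its leading 3 were weaker, and all lay in Col5a2 introns: chr1:45501496-45501645 had 69 and 60, chr1:45432056-45432205 had 70 and 54, and chr1:45483116-45483265 had 68 and 55. Neither gene had a shared distal peak in the sequence between their 3′ ends.

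At Col5a1, 12 of 21 shared distal peaks lay in the gene, in 150 kb of territory, and 9 upstream, in 72.1 kb. The strongest lay 50.2 kb upstream, at chr2:27836196-27836345, with signals of 108 and 88. A peak 72.9 kb upstream, chr2:27813496-27813645, had 99 and 81, and an intronic one 48.1 kb into Col5a1, chr2:27934416-27934565, had 96 and 84. Only 2 of the 21 had a neighbour within 1 kb, so the Col5a1 sites were more scattered than those of the type I genes.

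Postn had 6 shared distal peaks upstream, 1 in the gene and 7 downstream. The strongest lay 7.64 kb upstream, at chr3:54353396-54353545, with signals of 97 and 56. Its percentiles, 92.3 and 84.3, had a wider gap between the replicates than at the strongest site of any other gene here. Next came a downstream peak at chr3:54413356-54413505 with 74 and 61, and an upstream one at chr3:54358576-54358725 with 66 and 58. The last belongs to a run of 3 peaks from 2.08 to 3.42 kb upstream of Postn. Both of the farthest upstream peaks given to Postn lay in introns of its neighbour Trpc4. Just beyond the 100 kb limit, Postn had 4 more peaks of replicate 1 at 101 to 103 kb, with signals from 31 to 54, of which 2 were shared, and its last replicate 1 peak inside the limit, at 90.7 kb, had a signal of 36.

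Cdh11 had 4 shared distal peaks upstream, 3 in the gene and 1 downstream. Its intronic peak 4.55 kb into the gene, chr8:102781016-102781165, had signals of 110 and 84 and lay within 500 bp of the start of Gm45258, an unclassified transcript. The downstream peak, chr8:102553656-102553805, 83.6 kb past the nearest Cdh11 TSS in territory beyond the 3′ end, had 105 and 86. The next, chr8:102743016-102743165 in an intron, had 64 and 51. A shared peak 1.49 kb into Cdh11, chr8:102784076-102784225, was higher than that in replicate 1, at 72, and lower in replicate 2, at 42. The other 4 shared distal peaks of Cdh11 had signals of 58 or less in replicate 1.

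Shared distal peaks of the 7 genes ranked higher within the lists than shared distal peaks in general. Their median percentile, averaged over both replicates, was 71.2, against 61.4 over all 75905 shared distal peaks. With every distal peak of a single replicate counted, the medians were 59.2 in replicate 1 and 64.7 in replicate 2, against 47 and 47.4 over all genes. Of the 109, 21 (19.3%) lay above percentile 90, against 7.7% of all. Col1a2 supplied 8 of the 21, Col1a1 5, Col5a1 4, Col3a1 2 and Cdh11 2, and Col5a2 and Postn supplied 0. By gene the median was 79.9 at Col1a1, 78.2 at Col1a2, 73.1 at Cdh11, 71.2 at Col5a1, 69.1 at Col3a1, 63.2 at Postn and 62.6 at Col5a2. The 2 type V genes differed from each other in this, with 4 of 21 Col5a1 sites and 0 of 18 Col5a2 sites above percentile 90.

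**Figure D4:**
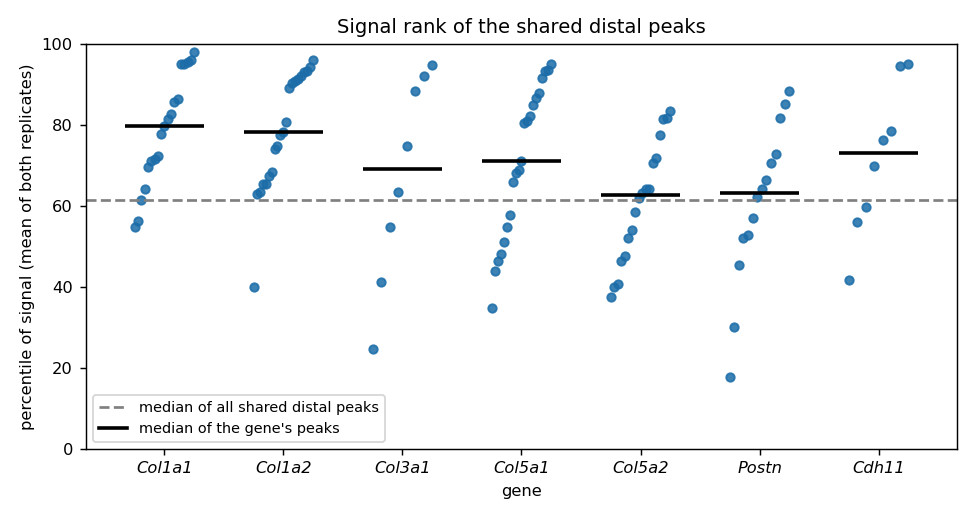
Percentile of signal of each shared distal peak, averaged over both replicates (vertical axis), for the 7 genes, with a black bar at the median of each gene and a dashed line at the median of all shared distal peaks, 61.4. All 7 medians lie above the line, from 62.6 at Col5a2 to 79.9 at Col1a1.

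The shared distal peaks of the 7 genes lay far out and mostly between genes. The median distance to the nearest protein-coding TSS was 37.8 kb, against 17.6 kb over all shared distal peaks. Of the 109, 74 were intergenic (67.9%, against 46.8% of all), 32 lay in introns (29.4%, against 48.6%) and 3 in exons, 1 each of Col3a1, Col5a1 and Col5a2. Of the 1417.5 kb of territory of the 7 genes, 642.9 kb lay upstream, 514.5 kb in the genes and 260.1 kb downstream. Each territory was 90.23 kb or more, against a median of 40.66 kb over all genes. How far the distances and shares follow from the territories was not tested. The 109 peaks fell into 102 separate hotspots of replicate 1, and all 75905 fell into 72197. Of the 109 peaks, 36 had another shared distal peak within 1 kb, which was not counted over all genes. For 68 of the 109 the hotspot reached the ceiling of 100, and for 37696 of all 75905 it did.

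Which gene a distal peak is given to depends on the genes allowed to claim it. When the TSSs of all annotated genes were allowed, pseudogenes and small RNAs included, the 7 genes kept 44 of their 109 shared distal peaks. Col1a1 then had 3 instead of 19, with 9 passing to the pseudogene A430060F13Rik and 7 to the small nuclear RNA gene Gm22456. Col1a2 had 2 instead of 21, with 8 passing to Gm37883 and 7 to the pseudogene Gm2522. Col5a1 had 13, Col5a2 9, Postn 9, Col3a1 5 and Cdh11 3, so the type I genes no longer had high counts among the 7. Only 2 of the 109 peaks lay within 500 bp of a noncoding TSS (1.83%, against 3.02% of all), the Col1a2 and Cdh11 peaks named above. No contact between a distal peak and a gene was measured.

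The base composition of the shared distal peaks differed between the genes. The median GC content was 48.7% over the 109 peaks and 49.3% over all shared distal peaks. Col1a1 had the highest median, 54.7%, and Col3a1 and Col5a2, neighbours on chromosome 1, had the lowest, 40.3% each. At least 1 CpG was present in 80.7% of the 109 peaks, against 86% of all shared distal peaks. By gene the share ran from 37.5% of the 8 Col3a1 peaks to 100% of the 14 Postn peaks, with 94.7% at Col1a1. Repeat sequence touched 46 of the 109 (42.2%), against 43.1% of all.

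Of 18 motifs searched on both strands of the 150 bp, 6 occurred in a larger share of the 109 peaks than of all shared distal peaks, and the counts are small. They were the E-box CAGATG (21.1% against 19.1%), the TEAD motif GGAATG (15.6% against 13.3%), the AP-1 motif TGAGTCA (5.5% against 4.57%), the RUNX motif TGTGGTT (4.59% against 4.47%), the forkhead motif TGTTTAC (3.67% against 1.82%, 4 peaks) and the homeodomain motif TAATTA (2.75% against 2.65%). The E-box CAGCTG was in 13.8% against 20.1%, the NFI motif TTGGCA in 12.8% against 16.4%, CCAAT in 14.7% against 19% and CTCF in 5.5% against 8.13%. The SOX motif ACAATG, the ETS motif CCGGAA, the SP/KLF motif GGGCGG, the TATA box and the AP-2 motif GCCNNNGGC were also below the share over all peaks. The CRE motif TGACGTCA, the SMAD motif GTCTGTCT and the GLI motif GACCACCCA were in 0 of the 109 and in under 1% of all. The genes divided them unevenly: 5 of the 15 peaks with CAGCTG were among the 14 of Postn, 6 of the 14 with TTGGCA and 7 of the 23 with CAGATG were among the 18 of Col5a2, and 3 of the 6 with TGAGTCA were at Col1a1. Motifs that share letters can count the same bases.

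Other genes of collagen matrix and the other classical cadherins were counted in 9 lists, in which 91 of 108 matched genes (84.3%) had a shared TSS peak, against 64.6% of all. Genes said to have none lack a shared TSS peak, but some had TSS peaks in each replicate. Loxl4 had 3 in replicate 1 and 1 in replicate 2, and Col14a1 had 3 and 2, while Loxl2 had 0 in each. All 6 other fibril-forming collagens had one, with the most shared peaks at Col24a1 (24 distal) and Col27a1 (14 distal). Of the enzymes and chaperones that modify and fold procollagen, 18 of 19 had one, led by P3h2 (23 distal) and Plod2 (13 distal), with none at P4ha3. Of the genes for propeptide removal and crosslinking, 11 of 13 had one, led by Adamts2 (23 distal), which cleaves the procollagen propeptide, and Lox (10 distal), which crosslinks fibrils and was tied with Loxl1 in shared peaks, with none at Loxl2 and Loxl4. All 8 collagen receptor genes had one, with Ddr1, Itga11 and Itgb1 tied for the most shared peaks.

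Of the fibril-associated collagens 6 of 9 had a shared TSS peak, with none at Col14a1, Col19a1 and Col20a1, although Col14a1 had 25 shared distal peaks, as many as Col12a1. Of the basement membrane and beaded collagens 9 of 14 had one, led by Col4a1 and Col6a3, and Col15a1, Col4a3 and Col4a4 were among those with none. Of the fibril-binding proteoglycans and glycoproteins 13 of 16 had one, with 18 shared distal peaks each at Tnc, Tgfbi and Thbs2, and Kera, Thbs4 and Tnxb had none. Of the collagen-cleaving proteases 4 of 6 had one, led by Mmp2 and Mmp14, with none at Mmp13 and Mmp8. Beside Cdh11, 16 of 17 classical cadherin genes had one, led in shared peaks by Cdh4 (31 distal). Cdh5, the cadherin of endothelium, had no shared TSS peak, although it had 18 shared distal peaks.

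**Figure D5:**
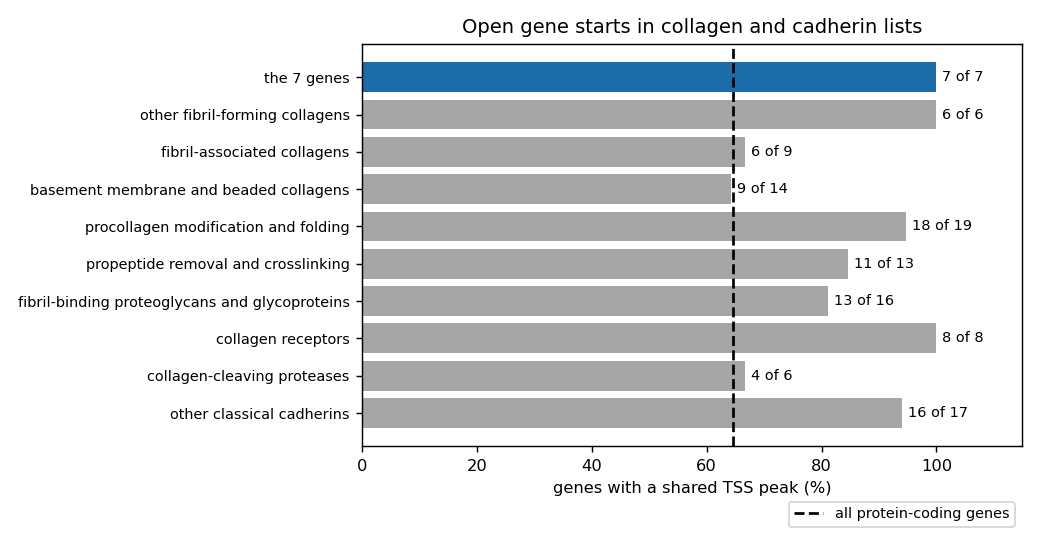
Share of the genes of each list with a shared TSS peak (horizontal axis, percent), with the count at the end of each bar and a dashed line at 64.6%, the share over all protein-coding genes. The 7 genes, the other fibril-forming collagens and the collagen receptors reach 100%, and basement membrane and beaded collagens stand at 9 of 14.

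Markers of the cells in the limb were read in the same way, by shared TSS peak, beside the 64.6% of all protein-coding genes that had one. The lists hold 2 to 10 genes each, and a share near 64.6% does not set a list apart. A marker without a shared TSS peak can still have TSS peaks in the separate replicates. Sp7 had 1 in replicate 1 and 2 in replicate 2, and Actc1 had 2 in each, while Bglap had 0 in each. All 10 limb mesenchyme markers had one, as did 3 of 5 osteoblast markers, with none at Bglap and Sp7, and all 3 tendon markers. Of the chondrocyte markers 2 of 4, of the muscle markers 3 of 4, of the epidermis markers 2 of 3 and of the endothelium markers 1 of 3 had one. None of the blood (0 of 3), liver (0 of 2) and brain (0 of 2) markers had one. Which of these cells carry the open sites of the 7 genes was not tested.

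Genes most like each of the 7 were sought among genes with the same number of shared TSS peaks and a territory within 10% of the same size, by the count of shared distal peaks. For Col1a1, 1 of 81 such genes had at least as many, Nepro with 21, and the median was 6. For Col1a2, 6 of 347 had at least as many, and the nearest was Gm5148 with 21. Col5a1 was matched by Fat1 with 21, and 14 of 119 genes reached its count. Col5a2 was matched by Kazn with 18 (22 of 118 reached its count) and Postn by Hibadh with 14 (65 of 290). Col3a1 was matched by Sbspon with 8 (174 of 373) and Cdh11 by Tdrd3 with 8 (54 of 73). The likeness covers counts only. Among genes of like territory, the type I genes were thus near the top, Col3a1 near the middle of its set and Cdh11 below the median of 12.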

How the data were processed

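DNase-seq was deposited for 2 replicates of 1 group. The authors' peak lists hold 208965 and 196870 regions of 150 bp, each with a signal in the authors' own unit, and the deposited hotspot lists give a −log10 q-value per region with a ceiling of 100. Build mm10 is stated per the labels. Neither the aligner nor the peak caller, nor any scaling, is given in the sources used here. The depth of the libraries is unknown, so no interval or detection limit is given, and no peak means no call.

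The members and the lists were chosen with earlier results of these data known. Peaks on chromosomes 1 to 19, X and Y were assigned with pandas 2.3.3 and numpy 2.4.6, and sequences were read with pysam 0.24.0. The assignment was tested on simulated data. Signals were compared between replicates by percentile within each list, whose median signals were 42 and 31. No test was run, because there is 1 group.

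Named were the 7 genes, their TSS peaks, 3 strongest shared distal peaks per gene by mean percentile (1 with its sequence), and from each list the 2 genes richest in shared peaks and at most 3 genes, taken alphabetically, without a shared TSS peak. Col21a1 and Mmp1a matched no gene. Col2a1 and Cdh5 are each in a matrix or cadherin list and in a marker list. Where genes tied, those tied were named too. Other sites were named after their values were seen. Alternatives were a 1 bp overlap, the 50000 strongest peaks, hotspots, each replicate alone, other windows and distances, and other sets of TSSs. The coordinates of replicate 2 were added after seeing the data.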

Additional observations from a re-analysis of the deposited data

How the results depend on the processing

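With the 50000 strongest peaks of each replicate, the 7 genes held 41 shared distal peaks (109 as reported), or 2.89 per 100 kb (7.69), 85.4% of the distal peaks of replicate 1 were shared (60.2%), the median percentile was 90.4 (71.2) and 36.6% lay in introns (29.4%). With the TSSs of all annotated genes these values were 44 peaks, 6.59 per 100 kb, a median percentile of 65.1 and 40.9% in introns. Distal peaks within 50 kb numbered 71, with 36.6% in introns, and those over 2 kb from a TSS had 25.5% in introns. With the outermost 5′ end of each gene only, the values were 8.54 per 100 kb and 33.7% in introns, and with a 1 bp overlap 64.1% of the peaks were shared. Leaving out either replicate gave 169 to 181 distal peaks, 11.9 to 12.8 per 100 kb, a median percentile of 59.2 to 64.7 and 30.4% to 35.5% in introns, since no overlap was then asked for. The ratio of the density at the 7 genes to that over all territories lay between 1.52 and 2.4 under these alternatives (1.61 as reported). All 7 genes had a shared TSS peak except Cdh11 among the 50000 strongest peaks, Col5a2 with hotspots in place of peaks and Col1a2 with the outermost 5′ end. The number of motifs above the share over all peaks was 6, and 9 in a 300 bp window. The causes were not tested. The unknown depth limits what a peak called in a single replicate shows.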
